A study of Homo sapiens with 4 samples.

Results

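The members described here are all regions of acetylated histone H3 lysine 9 (H3K9ac) that were called on chromosome 14 in T98G cells, an established human glioblastoma line. The chromosome held 497 of the 26828 regions of the control library and 1002 of the 39303 regions of the RBBP4 shRNA library, 1499 of 66131 in all. Every row of either list on chromosome 14 is a member. The members were chosen by the number of regions per chromosome: the ratio of shRBBP4 to shNT regions on chromosome 14, 2.02, was the highest of 23 chromosomes, and chromosome 10, at 1.91, stood just behind it. That ratio and every measure taken from the same pair of lists are therefore given as a description, with no test.

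The study compared T98G cells that had been transduced with lentivirus for a control NT shRNA (shNT) or for RBBP4 shRNA (shRBBP4), at passage 4 in both groups. The design asks how the H3K9ac landscape differs between them. Each shRNA is represented by 1 H3K9ac library made with a rabbit monoclonal antibody, and no difference has a replicate check. The input libraries of both groups were not used here, RBBP4 itself was not measured in these lists, and the sources used here do not say how many RBBP4 shRNA sequences were used or whether cells were cloned.

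H3K9ac is written by histone acetyltransferases and removed by histone deacetylases, and it is found at active promoters and nearby regulatory DNA. RBBP4 is a WD40-repeat protein that binds histones H3 and H4 and is a subunit of several chromatin complexes. These include the deacetylase complexes NuRD and SIN3, the Polycomb complex PRC2 and the histone chaperone CAF-1. Chromosome 14 is acrocentric: its short arm consists of repeats and ribosomal DNA that the assembly used here leaves out, so that regions can be called only on the long arm. Genes known to map to that arm include FOS, an AP-1 transcription factor, HIF1A, the oxygen-regulated transcription factor, and the immunoglobulin heavy chain locus near its end. The gene table at hand is on another assembly, so no region was assigned to a gene and no sequence is shown. Positions are on hg19, with starts counted from 1.

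Depth is unknown for both libraries, because the lists give no reads. More called regions therefore need not mean more acetylation. The whole lists differed by a ratio of 1.46, and the other chromosomes together by 1.45 (95% interval 1.43 to 1.48). Intervals in this text are exact 95% intervals for counting error alone, and they ignore that regions lie in groups.

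H3K9ac regions on chromosome 14 were more numerous in shRBBP4 along the whole long arm, and they covered more of it. The difference was 505 regions. The ratio of 2.02 had a counting interval of 1.81 to 2.25. Regions covered 287 kb in shRBBP4 and 117 kb in shNT, a ratio of 2.45, against 1.51 for the whole lists. When regions of 1 library were joined across gaps of up to 1 kb into clusters, shRBBP4 had 457 clusters and shNT 274, a ratio of 1.67 (1.43 to 1.94). By clusters the chromosome stood second, behind chromosome 10 at 1.70. Chromosome 14 made up 1.85% of the shNT list and 2.55% of the shRBBP4 list.

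The first shNT region started at 20800604 and the first shRBBP4 region at 20773397. The last ended at 105947879 in shNT and at 107252550 in shRBBP4. The 3 shRBBP4 regions beyond the last shNT region spread over 1.26 Mb at the end of the arm. They stood at percentiles 28.4 to 59.7 of their list. A percentile here is the rank of a region's score within its whole list, with tied scores sharing the mean rank and 100 the strongest.

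In bins of 5 Mb, all 17 bins that held a region had more regions in shRBBP4. Over all chromosomes 88% of such bins did. The bin from 20 to 25 Mb, the first to hold regions, had the largest difference, with 81 regions in shNT and 150 in shRBBP4. It was followed by 75 to 80 Mb, with 19 and 86, by 60 to 65 Mb, with 39 and 97, and by 50 to 55 Mb, with 54 and 110. These 4 bins held 250 of the 505 regions of difference (49.5%), so the excess was spread over many stretches.

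**Figure D1:**
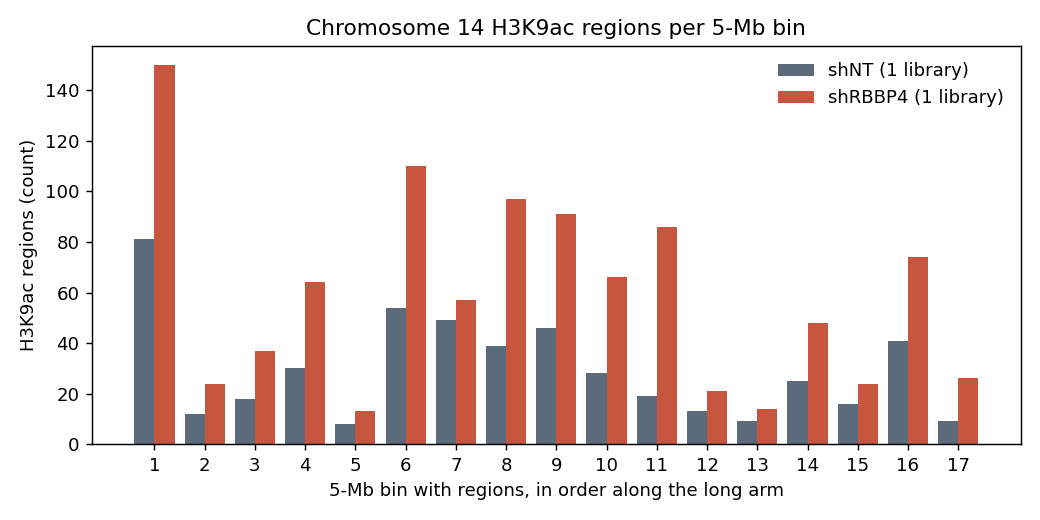
Bars give the number of H3K9ac regions (count, from 0) in each of the 17 bins of 5 Mb that hold a region, in order along the long arm, in 1 shNT and 1 shRBBP4 library. The shRBBP4 bar is the higher one in all 17 bins, by most in bins 1 (81 and 150) and 11 (19 and 86), and by little in bin 7 (49 and 57).

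The bin from 75 to 80 Mb differed from the others in ratio. At 4.53 (2.73 to 7.88) it had the highest ratio of the 465 bins of the genome that held 40 or more regions, counting both lists. The next on the chromosome, 60 to 65 Mb, had a ratio of 2.49 and stood at place 19, and 70 to 75 Mb, with 2.36, at place 30. The limit counts both lists, and 75 to 80 Mb, with 19 shNT and 86 shRBBP4 regions, passed it only through shRBBP4. Bins with few shNT regions are ranked only where shRBBP4 has many, so the places are a description. Of the 12 bins of chromosome 14 with at least 40 regions, 11 exceeded the whole-list ratio, against 47.3% of all such bins. Such a count follows in part from the choice of the chromosome by its ratio, and it is a description. The exception was 55 to 60 Mb, where the numbers were 49 and 57 and the ratio was 1.16 (0.780 to 1.74). Leaving out 75 to 80 Mb, the chromosome had a ratio of 1.92 (1.71 to 2.14). Leaving out any other single bin gave at most 2.11.

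At a finer scale the stretch around 75 to 80 Mb began earlier and ended before 79 Mb. The window from 73 to 74 Mb had 4 regions in shNT and 19 in shRBBP4. The window from 74 to 75 Mb had 17 and 33, a ratio of 1.94, below the 2.02 of the chromosome. The high ratios were therefore not continuous from 73 Mb on. From 75 to 76 Mb there were 9 and 40, a ratio of 4.44 (2.12 to 10.4). The next windows held 1 and 6, 8 and 29, and 1 and 11. From 79 to 80 Mb neither library had a region. From 73 to 79 Mb, limits chosen after seeing the data, shNT had 40 regions and shRBBP4 138, which is 98 of the 505 regions of difference (19.4%). The rest of the chromosome had a ratio of 1.89.

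From 25 to 40 Mb the 3 bins held 12 and 24, 18 and 37, and 30 and 64 regions in shNT and shRBBP4. Between 40 and 45 Mb neither library had a region, and from 45 to 50 Mb there were 8 and 13. The bin from 65 to 70 Mb had 46 and 91. Toward the end of the arm the bins from 80 to 85, 85 to 90 and 95 to 100 Mb, had 13 and 21, 9 and 14, and 16 and 24, with ratios of 1.62, 1.56 and 1.50. The bin from 90 to 95 Mb had 25 and 48, and that from 100 to 105 Mb 41 and 74. The last bin had 9 and 26, a ratio of 2.89 (1.31 to 7.01), and its shNT regions had the lowest median percentile of any bin, 16.7.

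Of 66 windows of 1 Mb with a region, 61 had more regions in shRBBP4 and 5 had fewer. Over the genome 77.5% of such windows had more and 15.2% fewer. The largest difference in a single window was from 23 to 24 Mb, with 34 regions in shNT and 69 in shRBBP4. The window from 75 to 76 Mb came next, and then 62 to 63 Mb, with 11 and 36, and 50 to 51 Mb, with 33 and 56. The windows with fewer shRBBP4 regions differed by 1 to 3 regions. They included the neighbours 57 to 58 Mb, with 8 and 5, and 58 to 59 Mb, with 15 and 13. In 8 windows only shRBBP4 had regions, 19 in all and at most 5 in a window. The share of such windows over the genome was not counted, so their number is not read as a trait of the chromosome.

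The shRBBP4 regions were then placed against the shNT list, in 3 classes of similar size. A region counted as overlapping when it shared at least 1 bp with an shNT region, and 378 regions did (37.7%, 34.7 to 40.8), against 50% of the whole shRBBP4 list. Another 306 overlapped none but lay in a cluster that also held shNT regions (30.5%, 27.7 to 33.5), against 26.9%. These are called added regions. The remaining 318 lay in clusters of shRBBP4 regions alone (31.7%, 28.9 to 34.7), against 23%, and are called new. These shares come from the contrast that chose the chromosome, so their distance from the whole-list values is not read as a result.

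**Figure D2:**
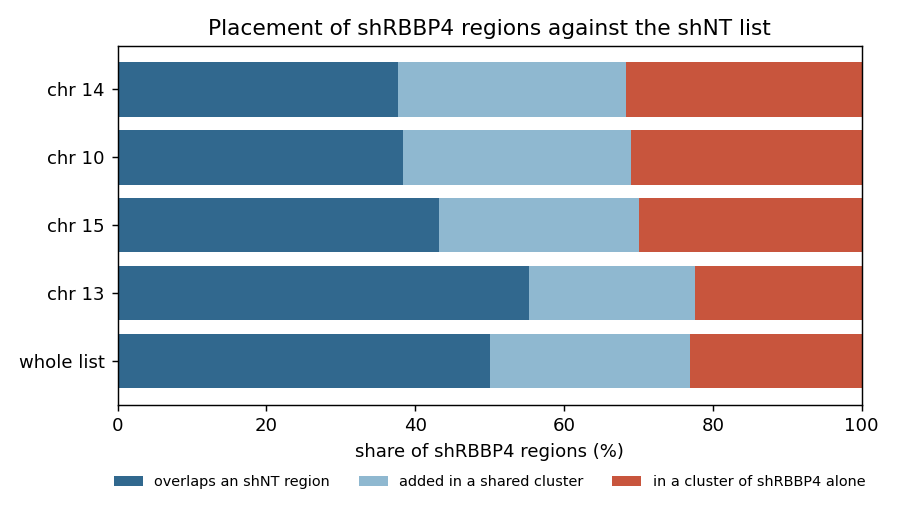
Bars divide the shRBBP4 regions of each chromosome and of the whole list into those that overlap an shNT region, those added in a cluster of both libraries and those in clusters of shRBBP4 alone (horizontal axis, share in percent). On chromosome 14 the shares were 37.7%, 30.5% and 31.7%, close to those of chromosome 10 (38.4%, 30.6% and 31.0%).

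Clusters of shRBBP4 alone gave more of the difference than clusters of both libraries. Joined together, the lists formed 468 clusters on chromosome 14. Of these, 242 held both libraries, 211 held only shRBBP4 (45.1%, against 35% over the genome) and 15 held only shNT (3.21%, against 7.26%). Clusters of 1 library held 318 shRBBP4 and 17 shNT regions, a net difference of 301 (59.6% of 505). Clusters of both held 684 shRBBP4 and 480 shNT regions, a net difference of 204 (40.4%). In the whole lists the division was 60.3% and 39.7%.

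The new clusters were mostly single regions. Their median span was 226 bp (207 bp over the genome), against 1266 bp for clusters of both libraries, which by construction join regions of each list. Of the 211, 137 were a single region, 49 held 2 regions and 25 held 3 or more. Clusters with 2 or more regions were 35.1% (28.6 to 41.9), against 28.7% over the genome. Their median distance to the nearest shared cluster was 72.1 kb, against 38.1 kb over the genome. Within 5 kb of a shared cluster lay 32 of them (15.2%), close to the 16.1% over the genome, and within 50 kb 90 (42.7%), against 56.5%. The median distance was 75.6 kb on chromosome 13 and 52.5 kb on chromosome 15, both also acrocentric, and 44.0 kb on chromosome 10.

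The new cluster with most regions lay at chr14:75037362-75039990 and held 5 shRBBP4 regions covering 1690 bp of 2629 bp. Its strongest region, chr14:75039112-75039990, was 879 bp wide and stood at percentile 93.9, and its weakest at 40.5. The 4 next largest held 4 regions each. They lay at chr14:24663693-24666103, chr14:50099697-50101987, chr14:30662856-30664931 and chr14:35515052-35516635. Their strongest regions stood at percentiles 76.5, 59.7, 82.1 and 66.3, so none of these reached percentile 90.

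Inside clusters of both libraries, shRBBP4 had more regions in 127 of 242 (52.5%, 46.0 to 58.9), against 45% over the genome. It had fewer in 31 (12.8%), against 21%, and the same number in 84. Many shared clusters were small in shNT: 116 had a single shNT region, and 70 of those had 2 or more in shRBBP4. No value over the genome was counted beside these, so they are not read as a trait of the chromosome. Higher covered length in shRBBP4 was more frequent than higher region number, which is a small whole number and was tied in 84 clusters. In 216 of the 242 the shRBBP4 regions covered more bases (89.3%, 84.7 to 92.9), against 71.9% over the genome. The regions of these clusters covered 221 kb in shRBBP4 and 114 kb in shNT, a ratio of 1.94, and the median ratio per cluster was 1.86, against 1.33 over the genome.

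**Figure D3:**
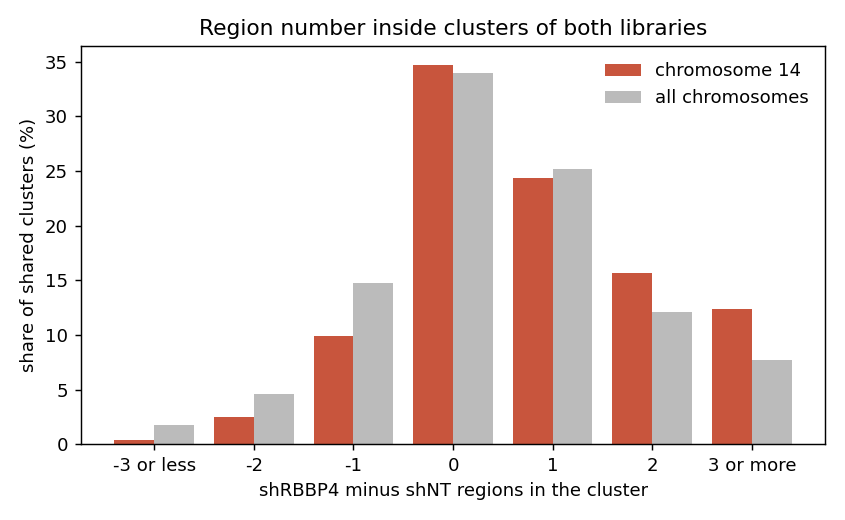
Bars give the share of clusters of both libraries (percent, from 0) by the difference in region number, shRBBP4 minus shNT, for 242 clusters of chromosome 14 and 10454 of all chromosomes. Clusters with 3 or more additional shRBBP4 regions were 12.4% on chromosome 14 and 7.75% over the genome, and those with 1 fewer 9.92% and 14.7%.

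Added regions lay mostly at the outside of a shared cluster, as in the whole list. Of the 306, 252 lay outside the outermost shNT regions of their cluster (82.4%, 77.6 to 86.5), at a median distance of 385 bp, and 54 lay between shNT regions. The corresponding values of the whole list were 81.6% and 386 bp. The cluster with most added regions lay at chr14:62026696-62032610. It had 1 shNT region of 129 bp at percentile 16.7, and 10 shRBBP4 regions covering 2813 bp, the strongest at percentile 85.9. The 4 next clusters each had 5 more regions in shRBBP4. At chr14:23447867-23452390 there were 2 shNT and 7 shRBBP4 regions, covering 551 and 1867 bp. At chr14:64969352-64972803 there were likewise 2 and 7, covering 413 and 1638 bp. Both other clusters lay between 75 and 80 Mb. The first, chr14:77491339-77495834, had 1 shNT region of 123 bp and 6 shRBBP4 regions covering 1242 bp. The second, chr14:78173119-78175887, had 1 of 145 bp and 6 covering 1578 bp.

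Clusters with fewer shRBBP4 regions did not always have less covered length. At chr14:58666920-58668210 there were 5 shNT and 2 shRBBP4 regions, but they covered 783 bp in shNT and 1140 bp in shRBBP4. At chr14:59949271-59952221 the numbers were 6 and 4, with 1732 and 2199 bp covered. At chr14:93260006-93262036 they were 4 and 2, with 773 and 1183 bp. In these 3 clusters the shRBBP4 regions were fewer and longer. At chr14:57734331-57737256 the 4 shNT regions covered 930 bp and the 2 shRBBP4 regions 642 bp. At chr14:39643920-39645802 the 4 covered 1221 bp and the 2 covered 1090 bp.

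The 15 clusters of shNT alone held 17 regions. The regions had a median percentile of 37.7, beside the 42.0 of all shNT regions of the chromosome. In the whole shNT list such regions ranked lower, with a median percentile of 24.8, against 51.2 for all regions. The 15 clusters of chromosome 14 had a median span of 138 bp, and 13 of them were a single region. The strongest region, chr14:50154738-50154875, stood at percentile 62.8 of the shNT list. None of the 26 shNT regions above percentile 90 on the chromosome lacked an shRBBP4 region within 1 kb, and in the whole shNT list 4 of 2699 did. An overlap with shRBBP4 was found for 413 of the 497 shNT regions (83.1%, 79.5 to 86.3), against 77% of the whole shNT list. Chromosome 10, the next by ratio, had 80.3%. The chromosome was chosen for its many shRBBP4 regions per shNT region, so this difference is not read as a result. In lists of equal length the share was 71.4%, with no whole-list value counted beside it.

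The stretch from 75 to 80 Mb was picked for its region numbers, and with 19 shNT beside 86 shRBBP4 regions few of the latter could each overlap a different shNT region. Its make-up is therefore a description. An overlap with shNT was found for 16 of the 86 shRBBP4 regions (18.6%, 11.0 to 28.4), 27 were added (31.4%) and 43 were new (50%, 39.0 to 61.0). The shares of the chromosome were 37.7%, 30.5% and 31.7%. The stretch had 13 clusters of both libraries, 25 of shRBBP4 alone and 1 of shNT alone. Of the 25, 11 held 2 or more regions, beside 35.1% on the chromosome. In 9 of the 13 shared clusters shRBBP4 had more regions, beside 52.5%. An shRBBP4 region overlapped 16 of the 19 shNT regions, beside 83.1% on the whole chromosome. Their median width was 151 bp, against 188.5 bp for the shRBBP4 regions. Above percentile 90 stood 4 of the 86 shRBBP4 regions and none of the 19 shNT regions, beside 6.09% and 5.23% on the chromosome.

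In 60 to 65 Mb, by contrast, the excess lay mainly inside shared clusters: 24 shRBBP4 regions overlapped an shNT region, 50 were added and 23 were new. In 70 to 75 Mb it lay mainly outside them, with 21 overlapping, 9 added and 36 new. In 20 to 25 Mb, where both lists were densest, 66 overlapped, 53 were added and 31 were new. Overlapping regions were also the largest class in 50 to 55 Mb, with 44 overlapping, 31 added and 35 new. The same held in 65 to 70 Mb, with 37, 23 and 31. Which class held most regions thus varied among these stretches. The differences between bins were not tested.

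Regions on chromosome 14 were narrower in shNT than in shRBBP4. The median width was 170 bp in shNT (quartiles 136 and 280 bp) and 207 bp in shRBBP4 (143 and 336.75 bp). The whole lists had medians of 210 and 213 bp. The shNT median was the lowest of the 23 chromosomes, while the shRBBP4 median was nearer to that of its list. Regions wider than 1 kb were rare in both, with 4 in shNT (0.805%, against 2.14% of the whole list) and 12 in shRBBP4 (1.20%, against 2.62%). The smallest width that occurs is 123 bp in shNT and 116 bp in shRBBP4. Exactly that width was found in 78 shNT regions of the chromosome (15.7%, against 12.4% of the list) and in 102 shRBBP4 regions (10.2%, against 10%).

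Matched regions were wider in shRBBP4 too. Each of the 378 overlapping shRBBP4 regions was set beside the shNT region it overlapped most. The shRBBP4 region was the wider one in 270 pairs (71.4%, 66.6 to 75.9), against 55.6% over the genome. Median widths were 319 bp in shRBBP4 and 206 bp in shNT, and the median ratio per pair was 1.35, against 1.08 over the genome. Some pairs share a partner: 52 shRBBP4 regions overlapped 2 or more shNT regions, and 28 shNT regions overlapped 2 or more of shRBBP4.

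The ranks of the pairs followed the same direction. The shRBBP4 region stood at a higher percentile of its own list than its partner in 270 of 378 pairs (71.4%), against 57.7% over the genome. The median percentile was 66.3 in shRBBP4 and 45.8 in shNT, and the median difference per pair was 15.7 percentile points (3.66 over the genome), with quartiles of -3.54 and 35.1. In 48 pairs the shRBBP4 region stood at least 50 points higher (12.7%, against 8.12%), and in 7 at least 50 points lower (1.85%, against 4.86%). The lists have different lengths, so a percentile in one does not equal the same percentile in the other, and these ranks show no change of the mark. In lists of equal length, the longer one reduced to its strongest regions, 198 of 312 pairs were higher in shRBBP4 and the median difference was 8.43 points. Scores are tied in blocks: the 497 shNT regions of the chromosome share 54 score values and the 1002 shRBBP4 regions share 143.

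**Figure D4:**
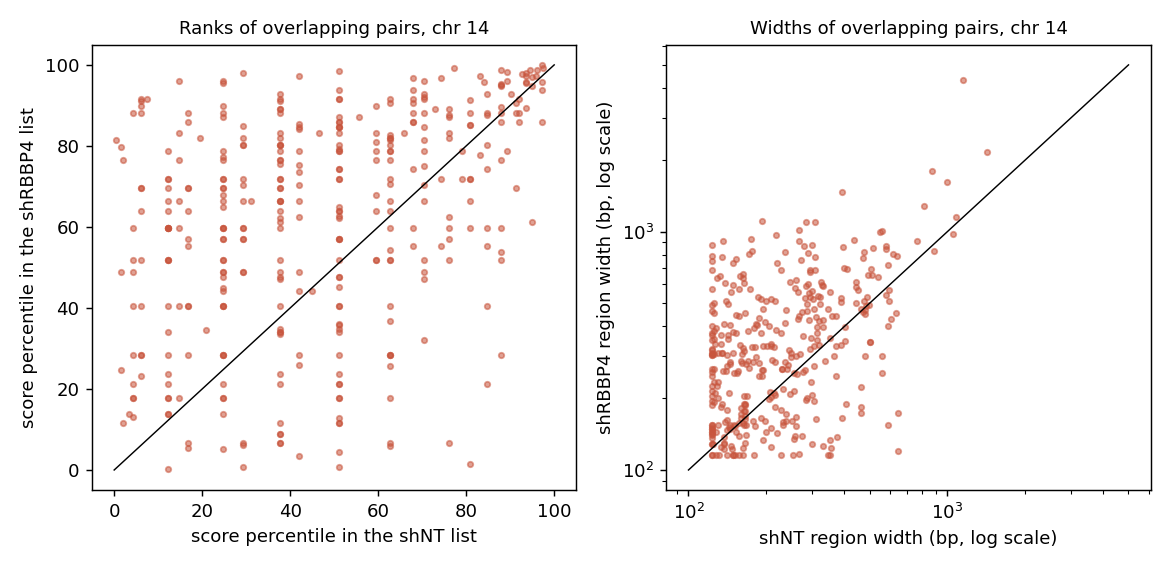
Each point is 1 of 378 overlapping pairs on chromosome 14, with the shNT region on the horizontal and the shRBBP4 region on the vertical axis, as score percentiles in the whole lists (left) and as widths in bp on log axes (right). The line marks equal values, and 270 pairs lie above it in each panel. Columns of points are tied scores or regions of the smallest width.

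Strong regions of chromosome 14 were few in both lists. Above percentile 90 stood 26 of the shNT regions (5.23%, 3.45 to 7.57) and 61 of the shRBBP4 regions (6.09%, 4.69 to 7.75), against 10.1% and 9.75% of the whole lists, which are near 10% by construction. Low shares were not particular to chromosome 14. In shNT and shRBBP4 they were 5.62% and 6.77% on chromosome 10 and 5.20% and 3.69% on 13. On chromosome 15 they were 8.56% and 11.6%. The strongest shRBBP4 region, chr14:20923034-20923209, stood at place 35 of its list. Its shNT partner, chr14:20923036-20923199, stood at place 742. The second strongest shRBBP4 region, chr14:50328071-50328835, at place 251, overlapped no shNT region. The strongest shNT region, chr14:35591521-35591699, stood at place 239, and its 498 bp partner in shRBBP4, chr14:35591190-35591687, at place 1055. A pair with nearly equal ends, chr14:89290774-89290938 in shNT and chr14:89290772-89290934 in shRBBP4, stood at places 687 and 271.

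Other strong pairs differed more in rank or width. The shRBBP4 region chr14:69865141-69865322 stood at place 313, at percentile 99.2, and its shNT partner chr14:69865144-69865302 at percentile 77.3. The shRBBP4 region chr14:21850989-21852144 stood at percentile 98.7 and its partner of 1080 bp at 87.8. In the opposite direction, the shNT region chr14:20923386-20924432 stood at percentile 97.1 and its shRBBP4 partner of 976 bp at 85.9. It lies in the same cluster as the strongest shRBBP4 region, so that both directions occur within 2363 bp.

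The widest region of the chromosome was an shRBBP4 region of 4311 bp, chr14:62163005-62167315. Its shNT partner, chr14:62162970-62164118, spanned 1149 bp. They stood at similar percentiles, 95.9 and 97.1. The joint cluster, chr14:62161230-62170143, was the widest shared cluster of the chromosome, with 7 shNT regions covering 2646 bp and 9 shRBBP4 regions covering 7161 bp. Further wide regions in shRBBP4 were chr14:21735942-21737562, of 1621 bp, beside an shNT region of 994 bp, and chr14:50360182-50361640, of 1459 bp, beside one of 392 bp.

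Regions without any shNT region within 1 kb numbered 359 in shRBBP4 (35.8%), against 25.7% of the whole list, and 18 in shNT (3.62%), against 6.24%. The strongest of them was the region at 50328071 named above. It belonged to a chain of 3 shRBBP4 regions and 1 shNT region that ended at 50330413, and so it counts as added and not as new. The next was the region at 75039112 described above. It was followed by chr14:23341998-23342383 at percentile 92.1, chr14:78227137-78227443 at 89.9 and chr14:77843526-77843659 at 88.2. Of these 5, 3 lay between 75 and 80 Mb. That stretch was picked for its region numbers and held 43 of the 318 new regions of the chromosome. The count is therefore not read as a trait of it. Above percentile 90, 3 of 61 shRBBP4 regions had no shNT region within 1 kb (4.92%), against 2.84% of such regions in the whole list.

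New and added regions ranked below overlapping ones, on chromosome 14 as in the whole list. New regions had a median percentile of 35.8 and a median width of 164.5 bp, added regions 40.5 and 180 bp, and overlapping regions 66.3 and 319 bp. The median percentiles of these classes in the whole list were 32.0, 36.0 and 68.7. Of the new regions 2 of 318 stood above percentile 90 (0.629%, 0.0763 to 2.25), of the added ones 5 of 306 (1.63%) and of the overlapping ones 54 of 378 (14.3%, 10.9 to 18.2). In the whole list these shares were 1.13%, 1.34% and 18.2%. Up to percentile 10, 18 of 113 shRBBP4 regions overlapped an shNT region (15.9%), and above percentile 90 54 of 61 (88.5%). The corresponding shares of the whole list were 24.0% and 93.6%.

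**Figure D5:**
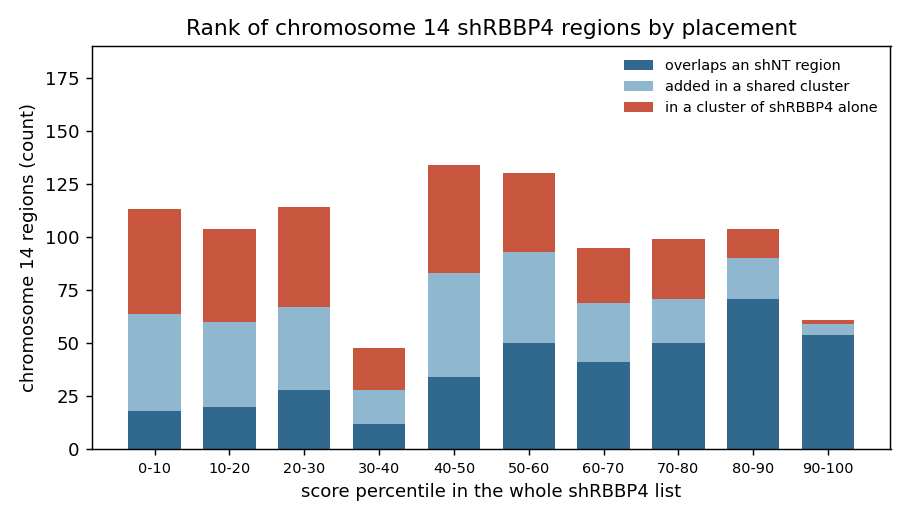
Bars count the 1002 shRBBP4 regions of chromosome 14 by score percentile, in steps of 10, in the whole shRBBP4 list, divided by placement against shNT. Overlapping regions rise from 18 of 113 in the lowest step to 54 of 61 in the highest, where 2 lie in clusters of shRBBP4 alone. Blocks of tied scores make the steps unequal.

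The numbers were also counted among the strongest regions of each list, where the same contrast is again only described. In the strongest 1000 regions of each list, 6 shNT and 12 shRBBP4 regions lay on chromosome 14, a ratio of 2 (0.695 to 6.49). In the strongest 5000 it had 52 and 87, a ratio of 1.67 (1.17 to 2.41), in the strongest 10000 150 and 220, a ratio of 1.47 (1.19 to 1.82), and in the strongest 20000 390 and 511, a ratio of 1.31 (1.15 to 1.50). Lists of the same length have a ratio of 1 over all chromosomes by construction. The strongest 1000 rest on 18 regions of the chromosome. Where a cut fell among tied scores, regions were taken in order of chromosome name. Tied regions of chromosome 14 thus came before those of most chromosomes. These counts and ratios depend in part on that order, and by how much was not tested.

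Chromosomes 10, the next by ratio, and 13 and 15, the acrocentric chromosomes of similar length, were set beside it in 3 shares. On chromosome 14 the shares of shared clusters with more covered length and of pairs wider or ranked higher in shRBBP4 were 89.3%, 71.4% and 71.4%. On chromosome 10, with 836 and 1595 regions, 84.4% of shared clusters covered more in shRBBP4, 66.8% of pairs were wider and 67.8% ranked higher there. On chromosome 15, with 911 and 1436 regions, the values were 68.3%, 58.5% and 60.0%. On chromosome 13, with 442 and 488 regions, they were 44.0%, 40.4% and 42.2%. In each of these shares chromosome 10 lay nearest to chromosome 14 and chromosome 13 farthest. The ratios of region numbers, by which chromosomes 14 and 10 were picked, had the same order. They were 2.02 on chromosome 14, 1.91 on 10, 1.58 on 15 and 1.10 on 13. The order of the shares is therefore not read as a separate likeness. The shNT medians of width were 183.5 bp on chromosome 10, 208 bp on 15 and 207 bp on 13, and those of shRBBP4 192, 219 and 188 bp. With 1 library per group, none of these differences between chromosomes was tested.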

How the data were processed

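The series has 4 samples: 1 H3K9ac and 1 input library for each shRNA. Each H3K9ac file is a list of called regions of a single library. Per the file headers, macs2 and PE stand in the name of each track. Per the submitters' processing notes, SICER, Picard, BWA and bcl2fastq 2.15.0 were among the tools, in unstated roles, and the build was hg19 (GRCh37). The caller that made the lists, its threshold and the use of the input were not given in the sources used here. The deposited score of each region is the authors' value on an unstated scale and was used only for ranks within a list. Start and end are other deposited values, in bp, per the file headers' BED layout.

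Rows on chromosome 14 were taken from both lists. Overlap meant at least 1 bp. Clusters joined regions across gaps of up to 1 kb. Bins used region midpoints. Shares have Clopper-Pearson and ratios exact conditional 95% intervals. Regions were named by rule: the 5 highest-scoring, the 5 highest-scoring without a counterpart, the 5 widest, and the 5 clusters with most new, added or fewer regions. Some regions that these rules name are not reported here. The members, lists and rules were chosen with earlier results of these data known. Annotation with genes was planned and not run, because no annotation of the build was at hand. Functions were tested on simulated data. The work was done in Python 3.11.15 with scipy 1.17.1, pandas 2.3.3, numpy 2.4.6 and, for figures, matplotlib 3.10.9.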

Additional observations from a re-analysis of the deposited data

How the results depend on the processing

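No paired analysis was possible because there is a single library of each group. Values counted as moved when they left their own counting interval. The ratio of region numbers was 2.12 in the higher-scoring 50% of each list, 1.35 (497 and 671 regions) in lists of equal length, 1.67 in clusters and 2.45 by covered length. It was above that of the whole lists in each setting by number, and the highest of 23 chromosomes except in clusters. The higher-scoring 50% and equal lists took scores tied at the cut in order of chromosome name, chromosome 14 before most others. The counts, ratios, places and medians of these settings can depend on that order, which was not varied. Lists of equal length shorten only shRBBP4, and the whole-list ratio is then 1. The 4 bins with most held 43.8% of the difference in bins shifted by 2.5 Mb and 66.7% in lists of equal length. The bin from 75 to 80 Mb came first in clusters (14 and 38) and with equal list lengths (19 and 59), while 72.5 to 77.5 Mb first in shifted bins (33 and 110). Overlapping, added and new regions were 34.0%, 34.2% and 31.7% with an overlap of 50% of the shorter region, and they were 46.5%, 25.8% and 27.7% with equal list lengths. With a gap of 500 bp, 24.5% were added and 37.8% new, and with 5 kb 34.4% and 27.8%. Clusters of shRBBP4 alone were 50.2% of all with 500 bp and 33.2% in lists of equal length. The shared share of shNT regions was 76.1% with 50% overlap, 96.4% within 1 kb and, with equal list lengths, 71.4%. Median widths in shNT and shRBBP4 were 206 and 289 bp in the higher-scoring 50%, and 384 and 681 bp in clusters, gaps included. The median rank difference of pairs was 8.43 in lists of equal length. It was 11.9 by width, 18.5 from the shNT side and 15.9 in mutual best pairs. Clusters for widths, pairs of the latter kinds, pairs in equal lists and leaving out 75 to 80 Mb were chosen after seeing the data. For the values that moved, the cause was not tested; equal lists and the higher-scoring 50% hold fewer regions by construction. Unknown depth limits every comparison of number.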
